A study of Mus musculus with 416 samples.

Results

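The genes described here encode the proteins of the cytosolic ribosome. They were taken from the deposited gene table by symbol: protein-coding genes named Rpl or Rps followed by a number, with at most an a, x, y or l and a further digit, together with Rpsa, Rplp0, Rplp1 and Rplp2, and without the ribosomal S6 kinase genes. The rule finds 83 genes of 46517 in the table, 51 of the large and 32 of the small subunit. The table holds 416 RNA libraries of striatum, the brain region of spiny projection neurons that receives dopamine, from drug-naïve J:DO (Diversity Outbred) mice, an outbred stock bred from several inbred founder strains. The labels give a sex and a breeding generation: generation 21 (76 females, 74 males), generation 22 (60 females, 59 males) and generation 23 (72 females, 75 males). All animals are of 1 stock and untreated, and no age, litter or genotype is given.

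Cytosolic ribosomes translate nearly all cellular mRNA. Each ribosome needs 1 set of its proteins, so that their genes are usually transcribed at matched levels, and their short mRNAs often begin with a run of pyrimidines (the 5′ TOP sequence) through which growth signalling sets their translation. Mammalian genomes also hold many processed pseudogenes of these genes, which are intron-less copies of the mRNA pasted back into the genome, so that a short read can match the gene and a copy alike.

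Levels are CPM, the deposited estimated counts scaled to a common TMM-adjusted library total, and log2 differences and tests come from edgeR's quasi-likelihood fit over all genes that passed a filter on low counts (22968 genes, 81 of the 83 members), with Benjamini-Hochberg adjustment over all of them and a call at an adjusted p under 0.05. The libraries hold 20331743 to 77458218 counts each, with a median of 43516288. The members took a median of 0.723% of these (0.558% to 1.08%). In 29 libraries the total count or the correlation with the other libraries was low, and in 29 libraries the level of Xist went against the labelled sex, so sexes are given as labelled. Markers of spiny projection neurons summed to a median of 4398 CPM in generation 21, 4244.5 in generation 22 and 3926 in generation 23, with a lowest value of 51.4 CPM in a library of generation 21. Each library carries an animal number of its own in the labels. Fewer cells of a type cannot be told apart from less RNA per cell in bulk tissue.

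Sequence comparison found near-identical copies for 76 of the 83 members (at least 90% identity over at least 80% of the coding sequence or transcript): 772 copies, of which 756 are annotated as processed pseudogenes and 12 as protein coding. Rpl21, with 63 copies, had the most. In several pairs the longest stretch without a difference exceeds the 100 bases of a read. The coding sequence of Rps12 (chr10:23785183-23787275, minus strand) and of Rps12-ps3 (chr19:59322290-59322783, plus strand) are the same at every base. Rpl19 (chr11:98026710-98030492) and Rpl19-ps11 (chr8:19492936-19493526) differ at 1 of 582 coding bases, Rpl35 (chr2:39001580-39005624) and Gm2000 (chr1:156366040-156366484) at 1 base, and Rpl23 (chr11:97777527-97782437) and Gm9794 (chr6:66875321-66875743) at 1 of 420. Coordinates and sequences are from GENCODE M21 on GRCm38. The stretches of 100 coding bases below show how little separates a member from its main copy, with differing bases in capitals. They are the first 100 bases for Rps12 and, for the others, the 100 bases around the difference.
Rps12: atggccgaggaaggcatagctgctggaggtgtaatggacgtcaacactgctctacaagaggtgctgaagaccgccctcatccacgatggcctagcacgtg
Rps12-ps3: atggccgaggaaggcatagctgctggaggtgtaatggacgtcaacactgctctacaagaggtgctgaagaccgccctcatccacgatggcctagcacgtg
Rpl19: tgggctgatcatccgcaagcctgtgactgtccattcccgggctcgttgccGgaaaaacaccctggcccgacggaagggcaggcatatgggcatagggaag
Rpl19-ps11: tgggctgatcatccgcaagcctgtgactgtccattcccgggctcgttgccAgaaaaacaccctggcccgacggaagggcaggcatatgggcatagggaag
Rpl35: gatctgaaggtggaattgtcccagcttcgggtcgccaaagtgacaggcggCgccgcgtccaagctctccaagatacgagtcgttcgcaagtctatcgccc
Gm2000: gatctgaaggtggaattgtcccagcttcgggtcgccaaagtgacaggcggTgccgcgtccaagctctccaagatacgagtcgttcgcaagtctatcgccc
Rpl23: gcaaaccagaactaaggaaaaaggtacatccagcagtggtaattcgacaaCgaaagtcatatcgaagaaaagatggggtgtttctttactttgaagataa
Gm9794: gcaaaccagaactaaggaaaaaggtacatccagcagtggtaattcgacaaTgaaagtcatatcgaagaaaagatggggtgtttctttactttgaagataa

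Of the 83 members, 80 had a mean level of at least 1 CPM, 48 of the large and 32 of the small subunit. The 3 below it are paralogs known from muscle or testis. Rpl3l, the striated-muscle paralog of Rpl3, had a median of 0.254 CPM (0 to 0.673), Rpl39l a median of 0 (highest 0.250) and was listed at 0 in 53.6% of libraries, and Rpl10l, a retrogene expressed in testis, was above 0 in 4 libraries (highest 0.0901 CPM). Per kilobase of the shortest annotated coding transcript, the highest mean level was that of Rps29, followed by those of Rplp1, an acidic stalk protein (330.8 CPM per kb), Rpl31 (327.8), Rps27 (293.1), Rpl23a (281.2) and Rps15 (270.4). These levels count the member alone.

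The spread of single members over the 416 libraries was very unequal. The SD of log2 CPM ran from 0.0840 for Rpl4 to 4.76 for Rps12, with a median of 0.168 over the 80 members. An SD above 0.5 was found in 12 members (15%), against 2.50% of the 8203 tested genes whose mean log2 CPM is 4 or more. The members were held only to a mean of at least 1 CPM, a lower bar, so these shares are not matched in level. The 5 most even members were Rpl4 (180.2 to 265.7 CPM, median 218.1), Rpl22 (37.1 to 62.4, median 46.7), Rps3a1 (103.4 to 197.1, median 151.8), Rpl6 (117.4 to 203.2, median 139.1) and Rps6, the S6 kinase substrate (116.3 to 196.06, median 140.6). The 10 most uneven were Rps12, Rpl17 (SD 1.35), Rpl36 (1.21), Rpl35 (1.16), Rpl12 (1.07), Rpl27 (0.986), Rpl41 (0.758), Rpl37 (0.732), Rpl9 (0.727) and Rpl19 (0.716). Rpl23 (0.546) and Rpl29 (0.542) complete the 12. Of these 12, 11 belong to the large subunit.

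Rps12, a protein of the small subunit's beak region, ran from 0 to 74.6 CPM with a median of 37.04, and it was listed at 0 in 36.1% of the 416 libraries. Its identical copy Rps12-ps3 was never at 0 and ran from 17.01 to 104.7 CPM (median 36.5). The sum of Rps12 and its 21 copies ran only from 54.7 to 113.1 CPM (median 74.9), with an SD of 0.164. In the library with the highest level of Rps12 (74.6 CPM) the copies together had 25.05 CPM, and in a library where Rps12 was at 0 they had 79.2 CPM.

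Large-subunit proteins with a wide spread also had steadier sums. Rpl19 ran from 31.5 to 208.07 CPM (median 130.02), its copy Rpl19-ps11 from 0 to 122.4 (median 0.826), and the sum with all copies from 105.1 to 211.8 (median 141.1), which took the SD from 0.716 to 0.136. Rpl23 ran from 22.4 to 126.2 CPM (median 90.2), Gm9794 from 0 to 67.02 (median 0.879), and the sum with all copies from 72.3 to 127.7 (median 98.005), with an SD of 0.111. Rpl12, part of the stalk base, ran from 9.55 to 116.2 CPM (median 26.3), Gm10275 from 0 to 97.6 (median 55.4), and the sum from 65.3 to 136.5 (median 87.4), with an SD of 0.139. For Rpl19, Rpl23 and Rpl12 the libraries fell into separate clouds: a cloud with a high member and a copy near 0, and others with a low member and a high copy. Rpl12 held under 25% of its sum in 49.8% of libraries, 25% to 75% in 24.3% and more than 75% in 26%. Rpl35 was below 25% in 26.7% of libraries, between in 37% and above 75% in 36.3%.

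**Figure D1:**
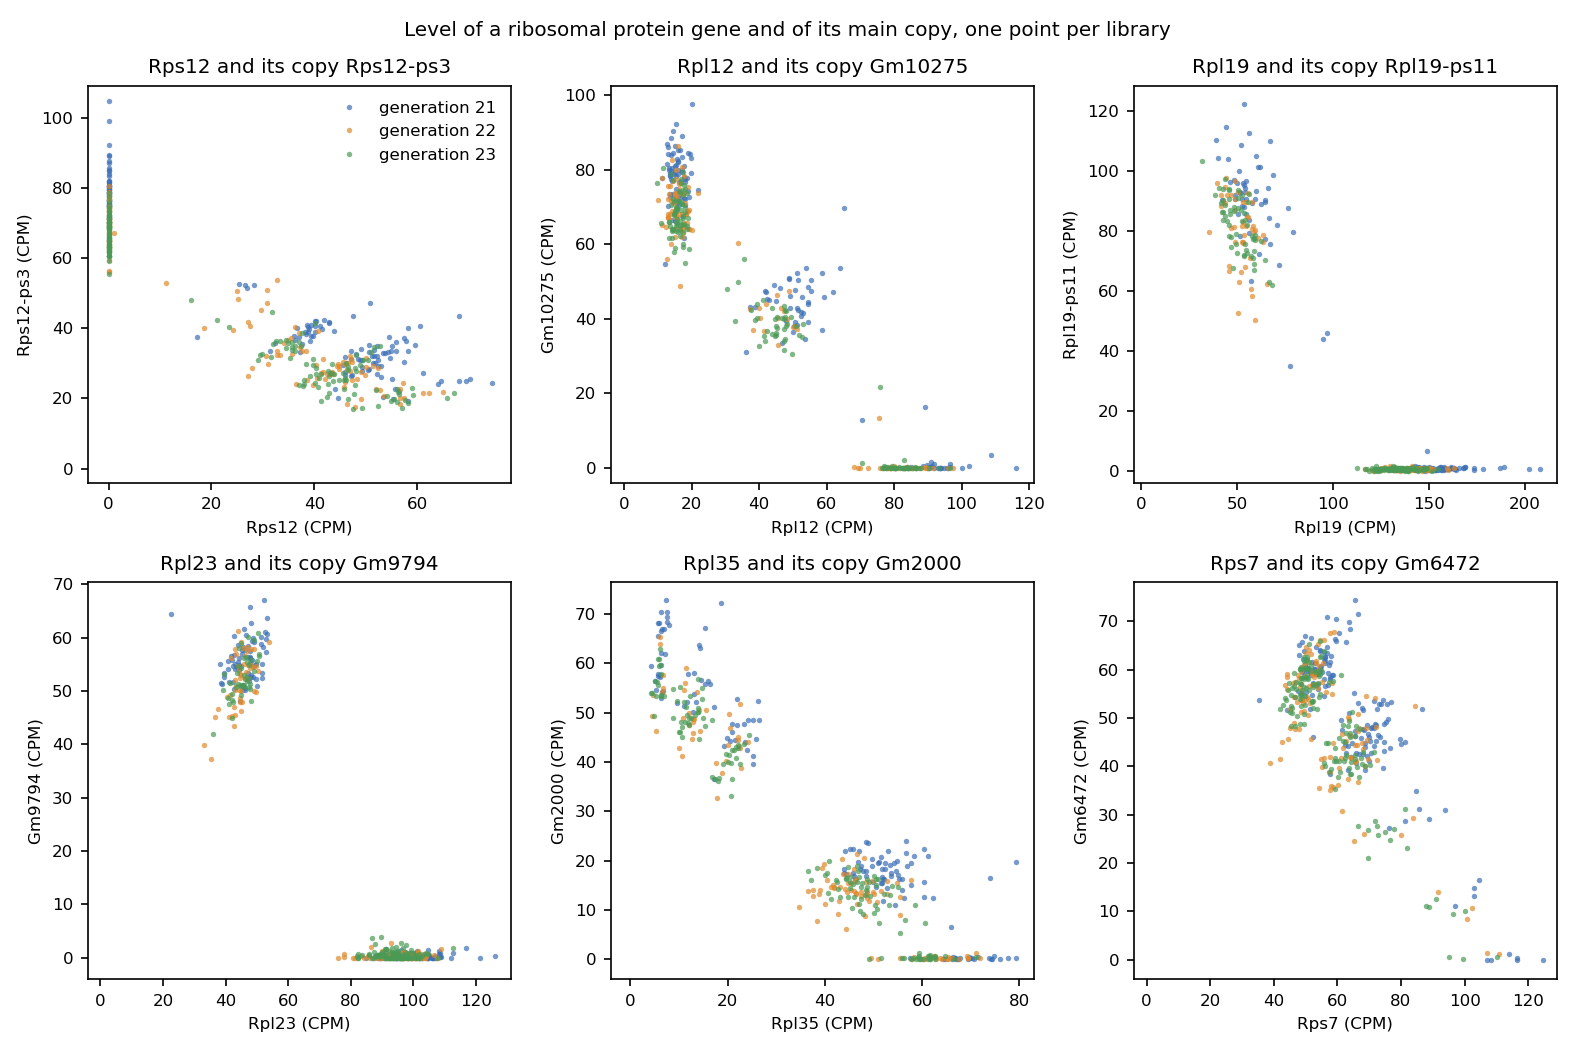
Level of 6 ribosomal protein genes (horizontal axis, CPM) against that of their main near-identical copy (vertical axis, CPM), with 1 point per library (n = 416) coloured by generation. Libraries fall into separate clouds of points, most clearly for Rpl19 and Rpl23, points of all 3 generations lie in the large clouds, and Rps12 is listed at 0 CPM in 36.1% of libraries, in which Rps12-ps3 is high.

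Other members were very low in single libraries. Rpl36 had its lowest level, 0.448 CPM (median 37.6), in male replicate 56 of generation 23, where its copies had 40.7 CPM. Rpl29, a basic surface protein, had 0.444 CPM (median 61.8) in female replicate 33 of generation 22, where its copies had 73.5 CPM. Rps13 had 5.46 CPM (median 49.9) in female replicate 8 of generation 23, where its copies had 43.2 CPM. Rpl17 had 3.11 CPM (median 131.7) in female replicate 71 of generation 21, where its copies had 179.9 CPM. In each of these libraries the copies were high where the member was low. These lowest values fell in 4 different libraries. Of the 12 members with an SD above 0.5, a library had a median of 4 below 50% of their sum (0 to 9), and 5 libraries had none.

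Summing every member with its copies, a step chosen after the single values were seen, removed the wide spreads. Over the 80 members the SD then ran from 0.0845 to 0.246 (median 0.144), no member stayed above 0.5, and the 12 that had been above it lay between 0.111 and 0.192. Of 30 members above 0.2 when taken alone, all had a copy, and 27 were at or below 0.2 as sums. The 3 that stayed above were Rps27l (0.246), a low-level p53-inducible paralog (median 6.03 CPM), Rps2 (0.230) and Rps14 (0.221), whose copies together never exceeded 0.387 CPM. Set beside the 500 tested genes nearest in mean level, the median member had its SD at percentile 63.3 when taken alone and at 48.9 as a sum. How the deposited counts divide a read between a gene and its copies is not given in the sources used here, and what sets the division in a library was not tested.

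**Figure D2:**
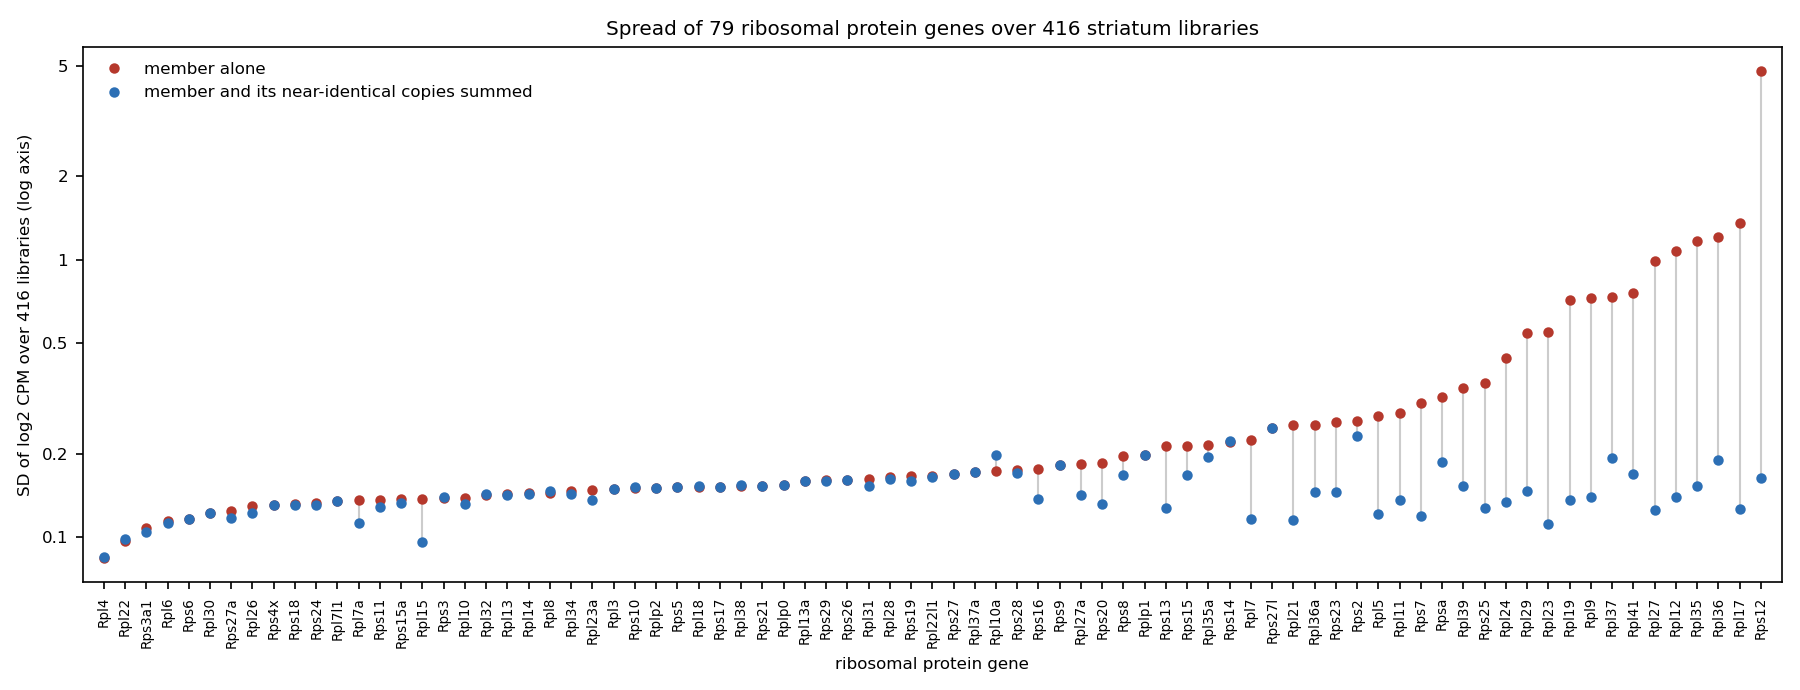
SD of log2 CPM over 416 libraries (log axis) for each of 79 ribosomal protein genes, in order of the SD of the member alone (red), with the SD after summing near-identical copies (blue). The red points reach 4.76 at Rps12, and the blue points all lie between 0.0845 and 0.246.

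Co-variation between members changed with the same step. With members taken alone the median of the 3160 pairwise correlations (Pearson's r of log2 CPM over 416 libraries) was 0.342, and the first principal component of the standardised levels held 44.4% of the variance. With copies summed the median r was 0.684, and the first component held 66.7%. Pairs within the large subunit (median 0.678), within the small subunit (0.700) and between the subunits (0.685) were alike. Levels of all genes in a library share its scaling and its generation: with the means of the 6 groups removed the median r of the sums was 0.565, and within generations 21, 22 and 23 it was 0.608, 0.588 and 0.468.

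The 4 members most like the mean of the others, as sums, were Rpl19 (r = 0.939), Rps23, a decoding-centre protein (0.936), Rpl37a (0.928) and Rpl11, a 5S RNP protein that binds Mdm2 (0.922). Taken alone, Rpl19 had r = 0.265, Rps23 0.369 and Rpl11 0.409, whereas Rpl37a, whose copies had a median of 0.649 CPM, had 0.778. Rpl5, the partner of Rpl11 in the 5S RNP, moved from -0.0333 alone to 0.626 as a sum. The 4 least like the others were Rpl7l1 (0.276), Rpl22l1 (0.285), Rps27l (0.401) and Rps2 (0.469). Of these, 3 are paralogs of another member.

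**Figure D3:**
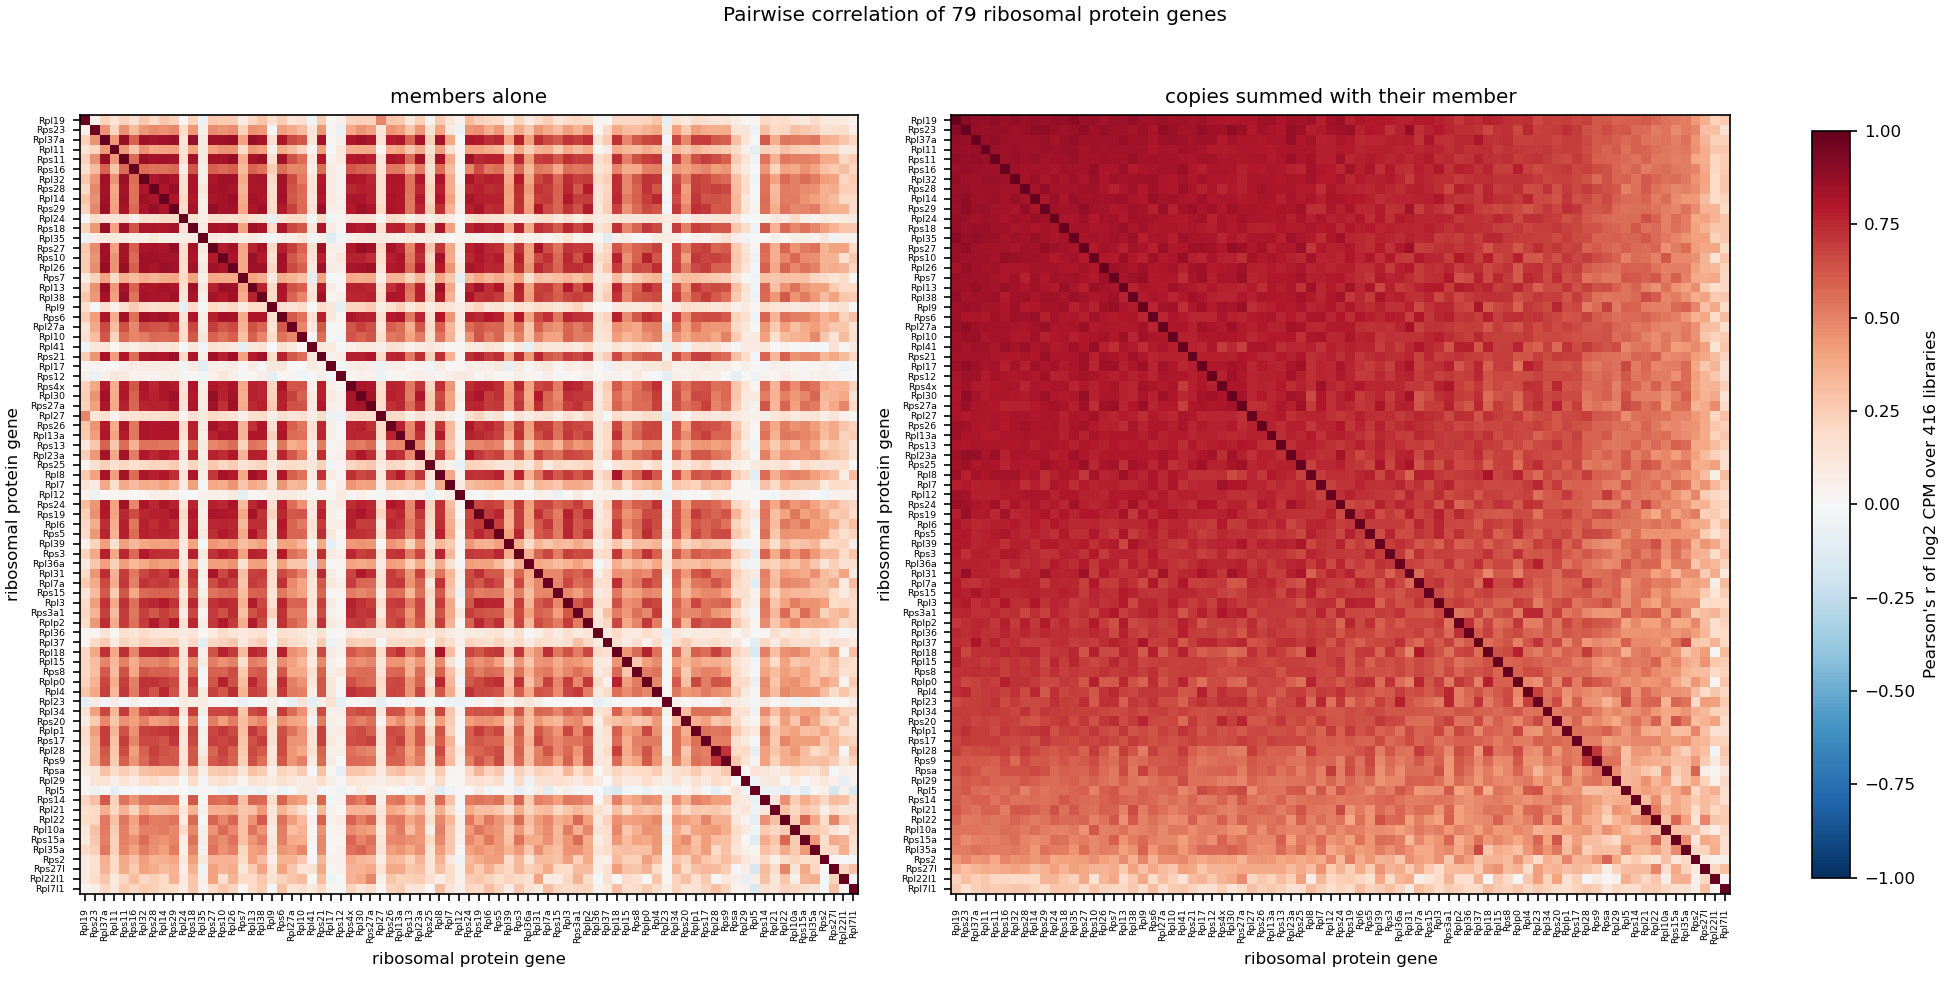
Pearson's r of log2 CPM over 416 libraries for each pair of 79 ribosomal protein genes, members alone on the left and copies summed on the right, in the same order of likeness to the mean of the others. Pale bands on the left mark members such as Rpl5 (r = -0.0333 with the mean of the others), Rps12 (0.0325) and Rpl12 (0.0878), and on the right pale cells remain mainly at the end of the order, at Rps27l, Rpl22l1 and Rpl7l1.

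The paralogs held their own levels in striatum. Rpl22l1 had a median of 0.882 of the level of Rpl22 (0.497 to 1.17), Rpl7l1 a median of 0.190 of that of Rpl7 (0.141 to 0.295), and Rps27l a median of 0.0589 of that of Rps27 (0.0383 to 0.146), as ratios of summed CPM without correction for length. Rpl22, an RNA-binding protein known to repress Rpl22l1, and Rpl22l1 correlated weakly and positively over the 416 libraries (r = 0.274, Spearman's rho = 0.233, 0.306 without the 2 libraries farthest from the median of Rpl22), and within generations 21, 22 and 23 r was 0.175, 0.473 and 0.378. For Rps27 and Rps27l r was 0.395, and for Rpl7 and Rpl7l1 it was 0.244. These correlations are descriptions with no test, and the points share library scaling.

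Nearly every member was lower in the later generations than in generation 21. In generation 23 against 21, 69 of 81 members tested were lower and none higher, where over all genes tested 32.6% were lower and 25.8% higher. With copies summed 78 of 81 were lower and none higher, where 33.1% of all genes were lower and 25.9% higher, and the median log2 difference of the members was -0.174 against -0.0179 over all genes. All 69 members called alone were called as sums, and Rps12, Rpl35, Rpl17, Rpl37, Rpl9, Rpl24, Rpl12, Rpl5 and Rpl23 were added. All 32 proteins of the small subunit were called, and the 3 not called were large-subunit paralogs: Rpl3l (-0.015), Rpl7l1 (-0.008) and Rpl22l1 (0.002).

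As sums, Rps28, a small-subunit protein near the mRNA exit, had the largest fall. It ran from 60.1 to 115.4 CPM in generation 21 (median 75.5), from 50.98 to 76.6 in generation 22 (median 66.1) and from 48.8 to 76.02 in generation 23 (median 64.1). The ranges overlap, and the median of generation 21 lies near the top of the other 2 ranges. Rps28 was 1.21-fold lower in generation 23 than in 21 (log2 -0.27, SE 0.014, edgeR adjusted p = 1.48e-56). Here and below, the SE and p of a generation difference rest on spread between animals within generations. Whatever else differed between the generations, such as collection dates, cannot be told apart from generation. Rpl41, the smallest ribosomal protein, had medians of 146.3, 126.3 and 123.8 CPM in generations 21, 22 and 23 and a log2 difference of -0.25 between 23 and 21, and Rpsa, the laminin-receptor protein of the small subunit, had medians of 193.6, 173.8 and 165.5 CPM and a difference of -0.24.

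Among the other members of the 10 largest falls were Rpl36 (log2 -0.24), Rpl37a (-0.24), Rps10 (-0.23), the stalk protein Rplp1 (-0.23), Rps29 (-0.23) and Rplp0, the stalk base (-0.23), at 1.17-fold to 1.18-fold. The smallest fall among those called was that of Rpl22 (-0.041, adjusted p = 0.000578), whose medians were 47.5, 45.8 and 46.7 CPM. Rpl4, the most even member, had medians of 225.9, 214.8 and 214.4 CPM. Taken alone, Rpl27 had the largest called difference (-0.31, SE 0.11), and it was outside the 10 largest as a sum. With the marker scores of 6 other cell types as covariates Rpl27 alone was not called (log2 -0.13, edgeR adjusted p = 0.408). For Rps12 alone the difference was -0.31 with an SE of 0.26 (adjusted p = 0.311), and as a sum -0.22 with an SE of 0.015 (adjusted p = 1.47e-35).

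**Figure D4:**
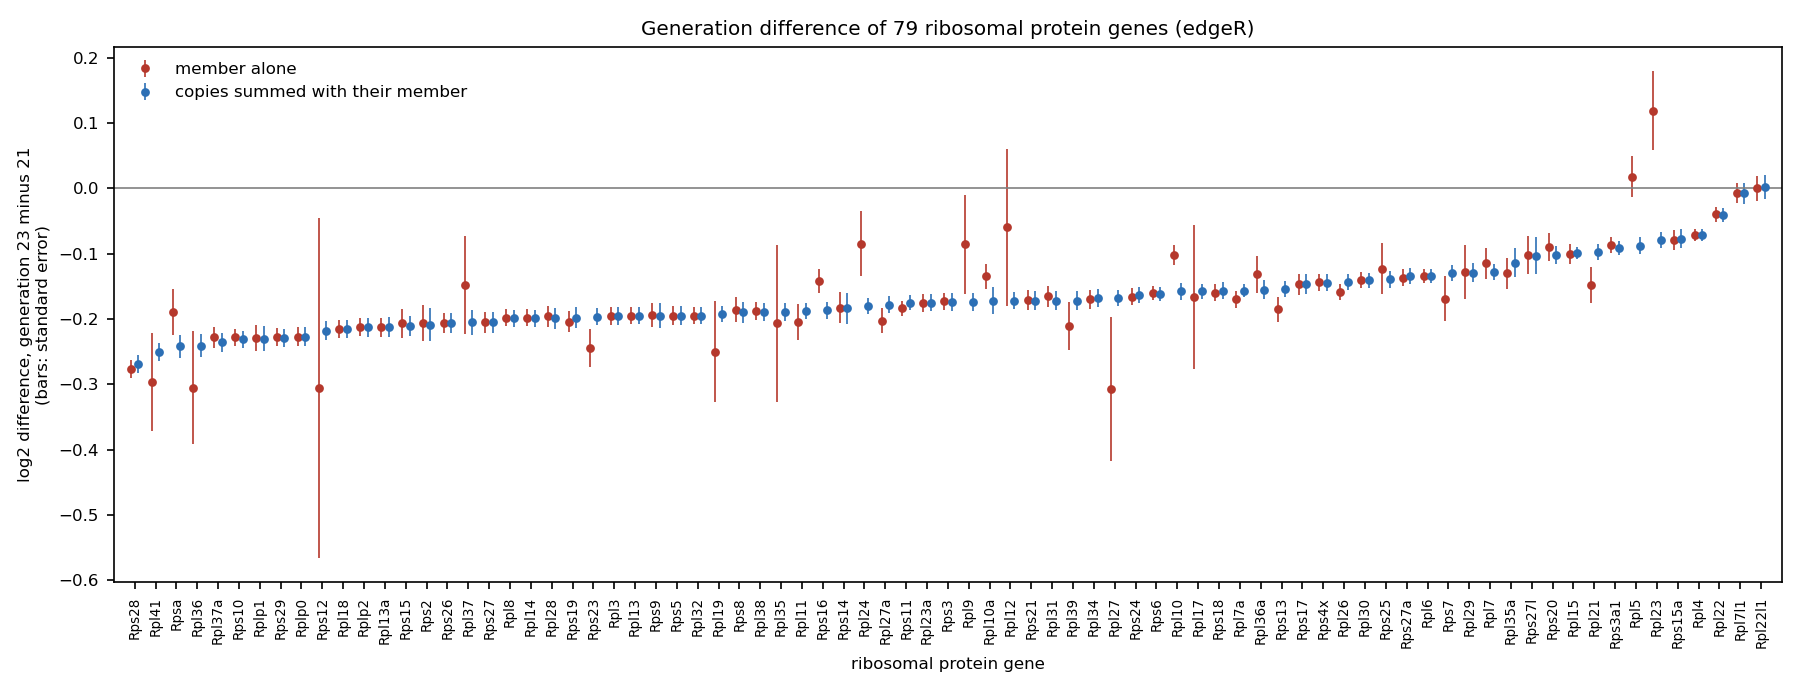
Log2 difference between generation 23 and 21 (points) with its standard error (bars) for 79 ribosomal protein genes, alone (red) and with copies summed (blue), in order of the blue values from edgeR. The blue points run from -0.27 at Rps28 to about 0 at Rpl7l1 and Rpl22l1, and the red bars are long where a member shares its level with copies, as at Rps12, Rpl35 and Rpl12.

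Generation 22 against 21 gave nearly the same picture, and as both comparisons share the libraries of generation 21 their likeness is no separate evidence. Of 81 members, 69 were lower and 2, Rpl22l1 and Rpl5, higher, where 24.6% of all genes were lower and 22.1% higher. As sums 79 were lower and 1 higher, where 25.8% of all genes were lower and 21.7% higher, with a median of -0.154. Rpl22l1 rose by 0.054 on the log2 scale (adjusted p = 0.0163), from a median of 40.9 to 42.7 CPM. Without the 29 libraries of low total or correlation it was not called (edgeR log2 0.040, adjusted p = 0.0954). Rpl5 turned: alone it rose by 0.094 (SE 0.033, adjusted p = 0.0141), while its copy Gm15500 fell by 0.277 (adjusted p = 0.0192), and the sum of Rpl5 and its copies fell by 0.057 (adjusted p = 0.000285).

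Between generations 23 and 22 the members were near the background. Of 81 members 11 were lower and none higher, where 9.63% of all genes were lower and 8.53% higher, and as sums 9 were lower and none higher, where 8.89% were lower and 9.21% higher. The 9 sums were Rpsa (-0.064), Rplp2 (-0.057), Rpl22l1 (-0.052), Rps19 (-0.051), Rplp0 (-0.051), Rpl9 (-0.044), Rpl3 (-0.043), Rps27a (-0.040) and Rps10 (-0.037). With marker scores of cortical excitatory, thalamic, choroid plexus, oligodendrocyte, astrocyte and vascular fibroblast cells as covariates none was called. The share of all genes called in that fit is not given here.

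Per library, the mean centred log2 CPM of the 80 sums gives 1 level for the whole set. In generation 21 its mean was 0.093 ± 0.104 in females (SD, n = 76) and 0.108 ± 0.103 in males (n = 74). In generation 22 it was -0.047 ± 0.0888 (n = 60) and -0.048 ± 0.0977 (n = 59), and in generation 23 it was -0.062 ± 0.0691 (n = 72) and -0.067 ± 0.0688 (n = 75). The groups overlap widely, and the highest library lay 1.83-fold above the lowest. A single library was more than 4 scaled median absolute deviations from the median: female replicate 2 of generation 21 (0.530), which is also among the 29 of low total or correlation and had 443.8 CPM of Rpl3 against a median of 296.5 in its generation. Deviations were taken from the median of all 416 libraries, and generation 21 as a whole had the highest mean. At 3 deviations there were 6 libraries, 5 high ones, all of generation 21, and 1 low one, female replicate 1 of generation 22 (-0.339). Among the high ones, male replicate 26 of generation 21 had 15287 CPM of choroid plexus markers, and the other 4 had 23.5 to 48.9.

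**Figure D5:**
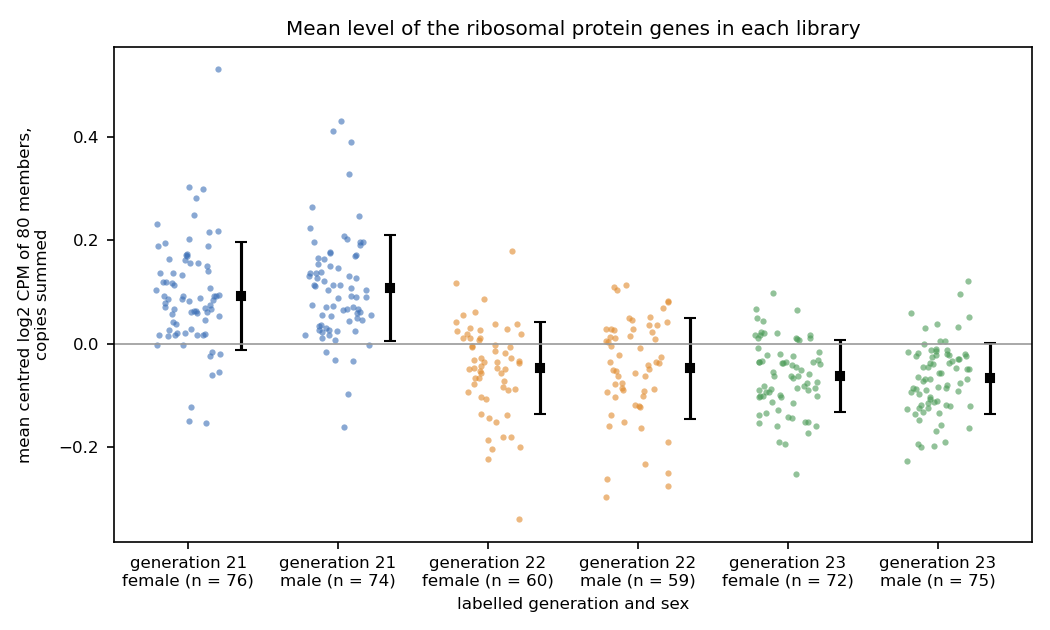
Mean centred log2 CPM of 80 ribosomal protein genes with copies summed (vertical axis) in each library, by labelled generation and sex, with the mean and SD of each group beside the points. Generation 21 has means of 0.093 and 0.108, generations 22 and 23 have means between -0.067 and -0.047, and female replicate 2 of generation 21 is the highest point at 0.530.

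Several measures moved with the level of the members. The difference between generation 23 and 21 varied with transcript length, though genes of every length class were called in both directions. Among other genes whose mean log2 CPM is 2 or more the median log2 difference was -0.040 for 1306 genes under 1000 bases of transcript (44.7% called lower, 22.9% higher), -0.034 for 1000 to 2000 bases (44.5% and 25.2%), -0.010 for 2000 to 4000 (36.5% and 32.4%) and 0.015 for 4000 and over (30.6% and 40.7%). The 63 members under 1000 bases had a median of -0.183 alone, and the 16 of 1000 to 2000 bases -0.158. Over the libraries the mean level of the other genes of 4000 bases and over correlated with that of the members at r = -0.730 (rho = -0.684, and -0.704 without the 2 farthest libraries), and within generations 21, 22 and 23 at -0.615, -0.617 and -0.566. Summed markers of cortical excitatory neurons, cells next to the striatum, had medians of 25.3, 37.6 and 156.5 CPM in generations 21, 22 and 23. All 5 of these markers were higher in generation 23 than in 21, and their mean level correlated with that of the members at r = -0.335 over the libraries. Within generations 21, 22 and 23 this r was -0.059, -0.125 and -0.308. Markers of other cell types were lower: 3 of 3 of ependyma (median log2 -0.444), 3 of 4 of thalamic neurons (-0.411), 4 of 5 of blood (-0.357), 3 of 4 of vascular fibroblasts (-0.309), 5 of 6 of microglia (-0.104), 3 of 5 of astrocytes (-0.105) and 5 of 8 of spiny projection neurons (-0.143). Of these, ependyma (r = 0.324) and microglia (0.292) were the most closely related to the level of the members by Pearson's r. Spearman's rho was 0.360 for ependyma, 0.353 for spiny projection neurons (r = 0.199) and 0.303 for microglia. Within generations 21, 22 and 23 r was 0.411, 0.051 and 0.166 for ependyma and 0.155, 0.311 and 0.284 for microglia. For spiny projection neurons it was 0.250, 0.075 and 0.328. Ependymal markers summed to medians of 12.7, 10.503 and 9.28 CPM in generations 21, 22 and 23, and microglial markers to 166.99, 161.1 and 157.9 CPM. With scores of cortical, thalamic, choroid plexus, oligodendrocyte, astrocyte and fibroblast markers as covariates 77 of 81 sums were lower in generation 23 than in 21 (median -0.160). With those of microglia, endothelium, blood and ependyma added, 10 in all, 77 sums were lower (median -0.149). Scores of spiny projection neuron markers were not among the 10. The shares of all genes called in these fits with covariates are not given here, so the counts have no background beside them. Total count (r = 0.181) and mitochondrial share (r = 0.103) were only weakly related to the level of the members over all libraries, the latter with -0.239, 0.422 and 0.122 within the 3 generations. The part of transcript length, or of what varies with it, in the generation difference was not tested, and collection or sequencing dates are not given in the labels, so that these cannot be told apart from generation.

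Females and males were not called apart in any member as a sum. Alone, 1 of 81 members, Rps7, was lower in females and none higher, where 1.3% of all genes were lower and 1.55% higher. With copies summed none was lower and none higher, where 1.31% were lower and 1.55% higher, and 3 of 81 members had an unadjusted p under 0.05 (Rps4x, Rpl4 and Rps27l). Rps7, on chromosome 12, ran from 38.8 to 88.7 CPM in females (median 55.7) and from 35.4 to 124.6 in males (median 59.002), and was 1.09-fold lower in females (log2 -0.13, SE 0.029, adjusted p = 0.00248). It was not called in generation 21, 22 or 23 alone. Its main copy Gm6472 lies on the X chromosome. It ran from 21.1 to 71.4 CPM in females (median 53.5) and from 0 to 74.3 in males (median 50.04). All libraries with Gm6472 below 21.1 CPM were thus labelled male, and the sum of Rps7 and its copies had a similar range in both (80.9 to 141.6 and 84.4 to 142.8 CPM) and a log2 difference of 0.001 (SE 0.010). Gm6472 itself did not pass the test (log2 0.165, adjusted p = 0.171). Rpl17-ps8, the X-linked main copy of Rpl17, had medians of 0.848 CPM in females and 0.431 in males and also did not pass (log2 0.723, adjusted p = 0.135). Of all copies tested 7 were called between the sexes (2.40%), 4 of them higher in females.

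No member had a sex difference that changed with generation (edgeR interaction test with 2 degrees of freedom, 0 of 81, where 0.322% of all genes were called). The smallest p was that of Rpl11 (unadjusted 0.0307, adjusted 0.588), and 2 members had an unadjusted p under 0.05. Among the copies that could be tested 9 had a called interaction (3.08%).

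Of the partners of the ribosomal proteins, elongation factors and the subunit genes outside the naming rule mostly moved in the same direction as the members. Initiation factors and ribosome assembly factors were mixed. Among the subunit genes outside the naming rule, those lower in generation 23 than in 21 included Fau, the fusion of Rps30 (log2 -0.21), Rack1, the scaffold on the small subunit (-0.14), and Rpl36al (-0.068). Of 10 elongation factor genes 8 were lower and 1 higher, with Eef1a1 (-0.16), Eef2, the translocase (-0.15), Eef1b2 (-0.15) and Eif5a (-0.12) leading. Initiation factors were split, with 15 of 29 lower and 11 higher, the former led by the Eif3 subunits Eif3h (-0.15), Eif3k (-0.17) and Eif3i (-0.15). Of the ribosome assembly factors 8 of 38 were lower and 15 higher (median 0.005), among the latter Bms1 (0.13) and Nop58 (0.15), while Nhp2 (-0.17) and Imp3 (-0.13) fell. In generation 22 against 21, 14 of the 38 were lower and 14 higher (median -0.007). For the RNA polymerase I list 8 of 15 were lower and 3 higher, and for the genes of mTOR and TOP control 8 of 17 were lower, including Mtor (-0.10), and 4 higher, including the S6 kinase gene Rps6kb1 (0.17) and Larp4 (0.15). Of the short nuclear genes of oxidative phosphorylation 29 of 33 were lower and none higher (median -0.119). Against these, the background over all genes is 32.6% lower and 25.8% higher.

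Outside the set, the genes whose log2 CPM most resembled the mean of the 80 sums over 416 libraries, among 12887 other genes whose mean log2 CPM is 2 or more, included Pfdn5 (r = 0.886), a prefoldin subunit, Eef1b2 (0.839), Rack1 (0.833) and Gabarap, an autophagy protein (0.787). With the means of the 6 groups removed r was 0.7998, 0.777, 0.762 and 0.636. The most opposed were long genes, Usp9x (r = -0.698) and Ralgapa1 (-0.687).

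As the members move together, the sequences at their annotated starts are given for some of them. Of the 83 members 63 matched a RefSeq promoter window (GRCm38.p6, 250 bases before to 50 after the start). A C followed by at least 4 bases that are C or T began within 10 bases of the start in 36 of 63 members (57.1%) and in 30.7% of 26962 other promoters, and the first base was C in 33.3% against 16.1%. The ETS-type motif CCGGAAG, on either strand, was found in 25 members (39.7%) against 9.05% of the others, the YY1-type motif AAGATGGC, on either strand, in 5 (7.94%) against 2.87%, and TATAAA, on either strand, in 6 (9.52%) against 14.2%. The other promoters were not matched to the members in level. A match describes letters and is not a site. The 30 bases below begin 10 bases before the annotated start, with capitals from the C of the match nearest the annotated start to the last pyrimidine that follows it. Pyrimidines before that C, as in Rack1, and matches farther from the start, as at the first base shown for Rps27l, are in lower case. Rpl19 and Rps23 are members that follow the rest most closely, Rpl22l1, Rps27l and Rps2 are among those that follow it least, and Rack1 is one of the like genes outside the set. They lie at chr11:98026700-98026729 (Rpl19), chr13:90923112-90923141 (Rps23), chr3:28805498-28805527 (Rpl22l1), chr9:66946076-66946105 (Rps27l), chr17:24720053-24720082 (Rps2), chr11:48800350-48800379 (Rack1), all on the plus strand.
Rpl19: aaacgCCCTCactgcgcatgtgcgccgcgg
Rps23: cggctgggcggggCTTCCCgcaatgccttg
Rpl22l1: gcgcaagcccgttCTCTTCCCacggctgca
Rps27l: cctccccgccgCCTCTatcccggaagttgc
Rps2: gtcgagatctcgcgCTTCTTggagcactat
Rack1: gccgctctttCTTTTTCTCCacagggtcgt
Such a run was found in members at both ends of the order of likeness, and none was found by this search near the starts of Rpl37a, Rpl11 and Rpl7l1.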

How the data were processed

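Striatal total RNA was depleted of ribosomal RNA and sequenced as stranded read pairs of 100 bases, per the labels' protocols. The authors deposited 1 table of estimated counts (expected counts) per gene; the aligner, the genome build and the treatment of reads that match several genes are not given in the sources used here. Of the values 23.8% were not whole, and rounding moved 0.005% of the total. Genes were filtered with filterByExpr and scaled by TMM, and edgeR 4.0.16 (R 4.3.3) was fitted with generation and sex as terms over all 416 libraries. Alternatives were limma 3.58.1 and DESeq2 1.42.0. The edgeR fit was also run on simulated counts, drawn independently for each gene, without batches or reads shared with copies. That run cannot check how co-varying members, batches or shared reads affect the calls, and its outcome is not given here. Copies were found with BLAST against GENCODE M21 transcripts. Total counts limit the precision of low members. Members, lists and tests were chosen with earlier results of these data known. Named genes are the 10 largest and 5 smallest SDs, the 4 highest and 4 lowest correlations with the other members, up to 10 called in each direction of a contrast, the 6 highest per kilobase, every member below 1 CPM, the paralog pairs, up to 4 of each pathway list by smallest p, and the 5 most similar other genes. Others were named after their values were seen: Rpl23, Rpl29, Rps13, Rpl5, Rps14 and the copies. Some items that this rule names are not reported here, and the plots by gene hold 79 of the 80 expressed members. Replicates are numbered in accession order.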

Additional observations from a re-analysis of the deposited data

How the results depend on the processing

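Of 529 alternatives for 33 named differences, 20.98% kept the direction but not the call, 10 reversed and the rest kept both. The reversals were Rpl5 in generation 22 against 21 with copies summed (-0.057), also without libraries of low total or correlation (-0.061) or with 6 or 10 marker scores as covariates (-0.058 and -0.048), Rps7 in females against males in the same settings (0.001, 0.003, 0.003 and 0.001), and Rpl10 in generation 23 against 22 with copies summed and 6 or 10 marker scores (0.004 and 0.002). The counts for generation 23 against 21 (69) and 22 against 21 (71) stayed within 1.5 times in all alternatives run. For generation 23 against 22 the count of 11 became 4 without a filter on low counts, 1 in females alone, 1 in males alone and 0 with 6 or 10 marker scores, with or without copies summed. For females against males the count of 1 became 2 without libraries whose Xist goes against the label, and 0 in generation 21, 22 or 23 alone and with copies summed, also without low libraries or with 6 or 10 marker scores. Apart from the fit with copies summed, the shares of all genes called in these alternatives are not given here. A change in such a count is therefore not shown to be particular to the members. The median SD of 0.168 became 0.14 in residuals of sex and generation, 0.145 in generation 22, 0.129 in generation 23, 0.144 with copies summed and 0.143 with copies of at least 95% identity. The median correlation of 0.342 became 0.253 in residuals, 0.188 in generation 23, 0.684 with copies summed, 0.682 at 95% identity and 0.417 as Spearman's rho. The first component's 44.4% became 36.7% in residuals, 39.6% in generation 21, 31% in generation 23, 66.7% with copies summed and 66.6% at 95% identity. The 1 library apart stayed 1 with copies summed, and became 3 at 3 deviations and 6 at 3 deviations with copies summed. Except where summing copies or using fewer samples is itself the change, the cause was not tested. Summing copies and the marker covariates were chosen after seeing the data. The labels give each library an animal number of its own and no pairing, and no paired analysis was run.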
